A study of Homo sapiens with 8 samples.

Results

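The transcript levels of 44 autophagy and lysosome genes were followed in HepG2 cells and in cells labelled Hep3B after treatment with sodium pentaborate pentahydrate (NaB), with curcumin and piperine (Cur and Pip), or with all of them together (the combination). The genes were chosen by name for their roles, by a rule that uses no measured value, although earlier results of these data were known when the list was drawn up. They comprised 24 autophagy genes, 18 lysosome genes and 2 transcription factors of the pathway, TFEB and TFE3, out of 17300 genes listed in at least 1 library. All 44 reached 1 FPKM in at least 1 of the 8 libraries, as did 15485 genes in all. HepG2 is a cell line from a human liver tumour and Hep3B is the name of another human hepatocellular carcinoma line. For 48 h, HepG2 cells received NaB at 2500 µM, Cur at 30 µM together with Pip at 6 µM, or all of these at the same doses, and cells labelled Hep3B received NaB at 1700 µM, Cur at 30 µM together with Pip at 6 µM, or all of these. Each line had an untreated control. The NaB dose therefore differed between the lines. There was 1 library per condition, so no value below has a replicate within its line, and no p-value was computed within a line. RNA was isolated in triplicate according to the study, but whether the preparations were pooled is not stated, and whether the control received the solvent of Cur is not given in the sources used here.

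Autophagy encloses cytoplasm in a growing double membrane, the phagophore, which closes into an autophagosome and fuses with a lysosome. The ULK1 kinase complex starts the process, the BECN1 and ATG14 complex makes the lipid signal, ATG9A and ATG2A bring membrane and lipid, and a conjugation machinery attaches proteins of the ATG8 family (the LC3 and GABARAP proteins) to the membrane. Cargo receptors such as SQSTM1 (also called p62) bind both cargo and ATG8 proteins and are themselves degraded. The lysosome, acidified by a proton pump, holds the cathepsins, which cleave proteins, and glycosidases, which cleave sugar chains. The transcription factors TFEB and TFE3 move to the nucleus when the kinase mTORC1 is inactive and bind E-box sequences in the promoters of many of these genes. In liver, autophagy supplies nutrients during fasting and removes lipid droplets and damaged mitochondria. Transcript levels do not measure autophagic flux, and the movement of TFEB or TFE3 into the nucleus is not visible in RNA.

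The E-box letters that TFEB and TFE3 are known to bind were searched in the members' promoters. The search is a description and no independent test, since these factors are already known to bind such letters in many of these genes. A promoter here is the stretch of 250 bases before to 50 bases after a gene's start in RefSeq (GRCh38.p14), and 37 of the 44 members had one in the table used. BNIP3L, LAMP2, CTSB, HEXA, ATP6V1A, ATP6V1H and PSAP had none there. Each gene had 1 window, which need not lie at the start used in these cells. The SQSTM1 window was chr5:179806143-179806442, while both SQSTM1 transcripts of the HepG2 control began at 179820902. The ATG5 window, chr6:106316217-106316516, lay inside the minus-strand gene, which reaches 106325791. Both count below as promoters without CACGTG. The 6 letters CACGTG, which read the same on both strands, were found in 9 of the 37 promoters (24.3%), against 8.89% of 15345 protein-coding promoters. The longer form CACGTGAC, which contains the 6 letters and was searched on both strands, was found in 8 of the 37 (21.6%), against 3.47% of all. By group, 6 of 12 lysosome promoters (LAMP1, MCOLN1, CTSA, CTSD, GAA and ATP6V0D1) and 2 of 23 autophagy promoters (ATG3 and ATG14) held the longer form, and the promoter of BNIP3 held only the 6 letters. The 200 bases before the start of 5 of these genes are shown, since their levels recur below and they range from higher to lower than control after Cur and Pip in HepG2. Capitals mark CACGTG. The windows are chr19:7522424-7522623 (plus strand) for MCOLN1, chr14:55411831-55412030 (minus strand) for ATG14, chr13:113297039-113297238 (plus strand) for LAMP1, chr20:45891135-45891334 (plus strand) for CTSA and chr17:80101381-80101580 (plus strand) for GAA.
MCOLN1: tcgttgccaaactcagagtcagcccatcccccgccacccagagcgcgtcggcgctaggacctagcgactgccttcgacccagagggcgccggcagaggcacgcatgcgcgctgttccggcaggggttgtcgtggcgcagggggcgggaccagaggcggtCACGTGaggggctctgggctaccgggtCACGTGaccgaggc
ATG14: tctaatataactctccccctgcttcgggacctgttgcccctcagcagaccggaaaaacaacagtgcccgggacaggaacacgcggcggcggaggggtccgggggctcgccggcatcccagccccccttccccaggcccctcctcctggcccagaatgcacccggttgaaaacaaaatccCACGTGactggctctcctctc
LAMP1: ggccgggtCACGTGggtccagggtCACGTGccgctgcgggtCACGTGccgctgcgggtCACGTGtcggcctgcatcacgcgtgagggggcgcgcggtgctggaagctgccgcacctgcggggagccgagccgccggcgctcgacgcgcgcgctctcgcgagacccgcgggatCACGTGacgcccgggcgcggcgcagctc
CTSA: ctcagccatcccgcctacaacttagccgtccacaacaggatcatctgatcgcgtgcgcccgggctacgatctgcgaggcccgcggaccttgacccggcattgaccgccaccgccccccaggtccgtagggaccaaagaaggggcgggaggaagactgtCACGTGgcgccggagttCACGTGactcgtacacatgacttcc
GAA: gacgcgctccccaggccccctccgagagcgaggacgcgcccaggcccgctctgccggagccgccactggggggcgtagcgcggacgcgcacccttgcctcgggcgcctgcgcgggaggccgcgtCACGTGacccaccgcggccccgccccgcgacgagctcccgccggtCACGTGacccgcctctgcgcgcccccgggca

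The LAMP1 window held 5 matches, 4 of them close together far from the start, and another match lay across the start itself. MCOLN1, CTSA and GAA held 2 each and ATG14 held 1. A match describes these letters alone and says nothing of binding in these cells.

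The libraries held an estimated 25.6 to 35.7 M fragments by coverage, and 70.4 to 88.1% of assembled transcripts could be assigned to a gene. A level is the sum of the FPKM (fragments scaled to transcript length and to the library's total) of all transcripts assigned to a gene. Since Cufflinks built transcripts anew in each library, a second level, called exon depth, was computed by spreading the FPKM of every transcript on the same strand over the exons of the gene's reference transcript. The share of transcripts with a single exon was 22.7% (NaB), 34.1% (Cur and Pip) and 32.2% (combination) in HepG2, against 16.4% (control), and 19.1%, 22.4% and 28.4% under the same treatments in the libraries labelled Hep3B, against 14.7% in their control. The part of this difference in the results was not tested, and exon depth is given beside the sum for members where the ratios differed by more than 1 log2 unit. Of 28 hepatocyte markers, 23 to 26 reached 1 FPKM in HepG2 libraries, while 3 to 6 did in the libraries labelled Hep3B. ALB, APOA1, APOB and HNF4A were each at 1.98 FPKM or less there. CPS1, an enzyme of the urea cycle on the same list, went the other way, at 2.12 to 15.0 FPKM in HepG2 and 74.5 to 469 FPKM in the libraries labelled Hep3B, and ALB and AFP were listed at 0 in the HepG2 control. Fibroblast and endothelial markers summed to 2.71 to 7.46 FPKM in HepG2 (1 of 10 at 1 FPKM or more) and to 38.9 to 309 FPKM in the libraries labelled Hep3B (3 to 5 of 10), led by LUM and DCN. Of 10 leukocyte markers, 1 or 2 reached 1 FPKM per library, with sums of 150.4 to 1394 FPKM in HepG2, led by LYZ, and of 1.88 to 3.49 FPKM in the libraries labelled Hep3B, while PTPRC, the defining one, was listed at 0 in all 8 libraries. The label Hep3B is therefore used as a name only.

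A gene was counted as past the fold when its log2 ratio to the control library of its line, on log2(FPKM + 1), lay beyond 1.5 in either direction. After Cur and Pip in HepG2, 8 of 43 measured members were higher past the fold (8.97% of 13462 genes were) and 3 were lower (10.2% were). After the combination in HepG2, 3 were higher (8.05% of genes) and 3 lower (11.5%). After NaB in HepG2, 1 was higher (4.77%) and none lower (5.07%). In the libraries labelled Hep3B, NaB had 1 of 44 members higher (5% of 13368 genes) and 4 lower (7.07%), Cur and Pip had 3 higher (6.52%) and 2 lower (4.02%), and the combination had 3 higher (6.81%) and 4 lower (8.22%). The share of members higher after Cur and Pip in HepG2, 18.6%, was the furthest above its background. The other shares lay between 0 and 9.09%, against backgrounds of 4.02 to 11.5%. In bulk RNA of this kind, fewer cells of a type and less RNA per cell cannot be told apart.

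Many of the lower values were genes listed at 0 in 1 library because no transcript there was assigned to them. Among members above 0 in both libraries compared, the counts higher and lower in HepG2 were 1 and 0 for NaB (1.63 and 1.78% of all genes so measured), 8 and 0 for Cur with Pip (5.15 and 7.27%) and 3 and 1 for the combination (4.67 and 7.27%). In the libraries labelled Hep3B they were 1 and 1 for NaB (1.7 and 4.13%), 2 and 1 for Cur with Pip (1.84 and 1.46%) and 2 and 1 for the combination (2.43 and 4.5%). By exon depth the counts higher and lower in HepG2 were 0 and 1 of 43 after NaB, 7 and 1 after Cur and Pip, and 1 and 2 after the combination. Of 14359 genes, 604 were higher and 545 lower after NaB (8% in either direction). After Cur and Pip 1004 were higher and 1360 lower (16.5%), and after the combination 1069 and 1397 (17.2%). In the libraries labelled Hep3B the members higher and lower were 0 and 4 of 44 after NaB, 1 and 0 after Cur and Pip, and 0 and 2 after the combination. Of 13949 genes, 565 were higher and 846 lower after NaB (10.1% in either direction). After Cur and Pip 705 were higher and 449 lower (8.27%), and after the combination 816 and 971 (12.8%). Of the 40 members above 0 in both HepG2 libraries, 32 were higher after Cur and Pip than in the control. Over all genes so measured, 5372 of 10983 were. The median log2 ratio was 0.57 for the members and -0.02 for all these genes. Of the 40 above 0 in both libraries labelled Hep3B, 14 were higher after NaB than in the control, beside 4417 of 11089 genes. The median was -0.44, against -0.16 over all genes. The members of a list share 1 pair of libraries in each of these counts.

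**Figure D1:**
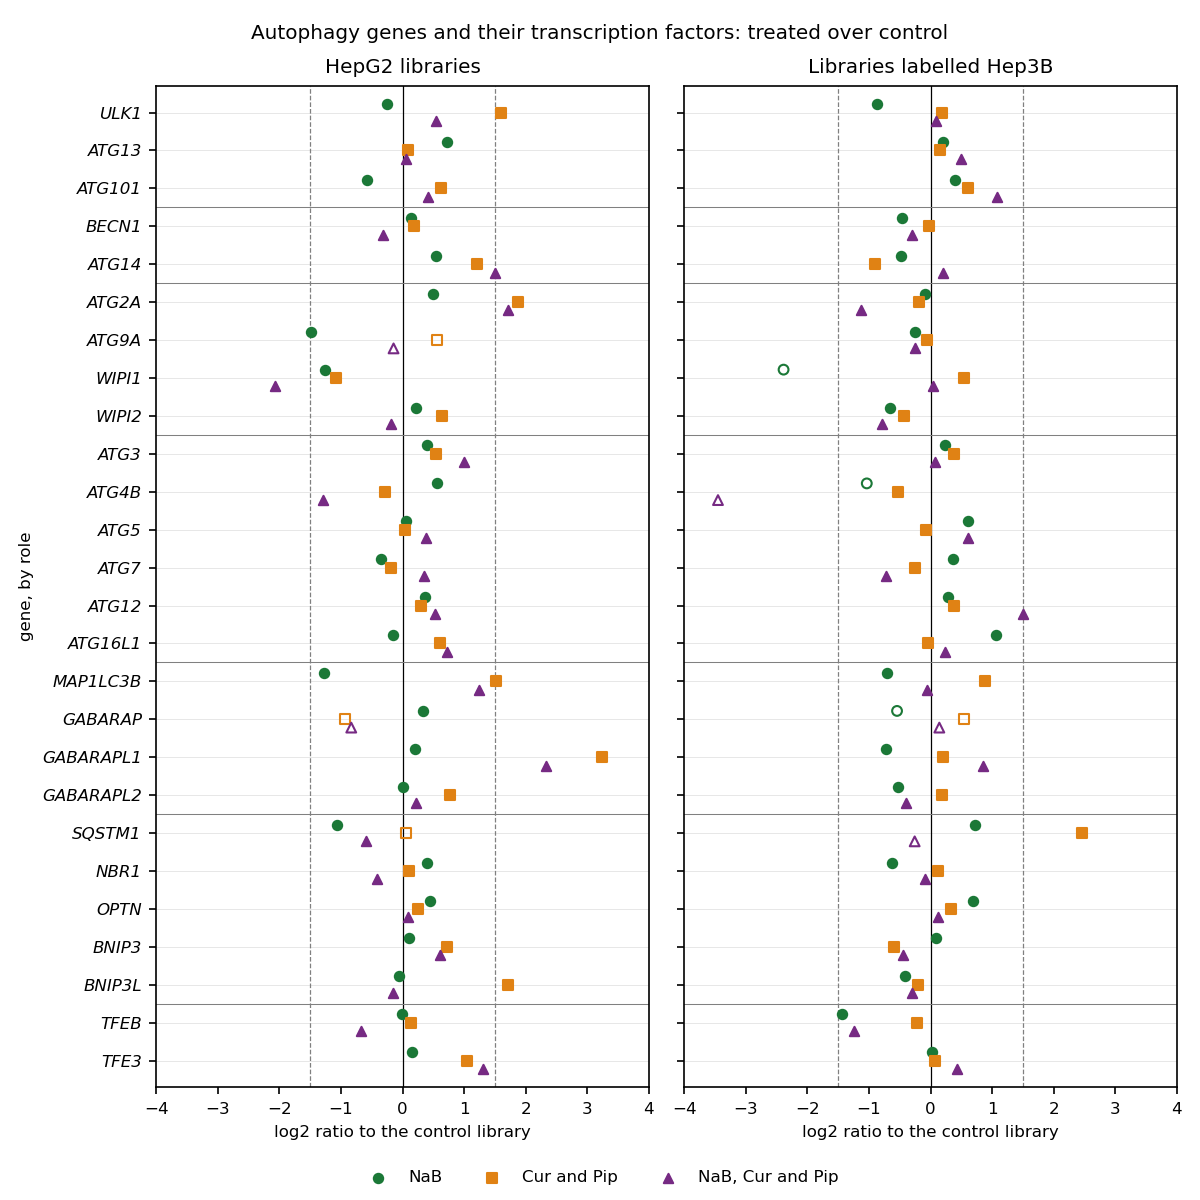
Log2 ratio of each treated library to the control library of its line (horizontal axis) for 24 autophagy genes and 2 transcription factors, ordered by role (vertical axis), with HepG2 on the left and the libraries labelled Hep3B on the right. Filled symbols are summed FPKM on log2(FPKM + 1), open symbols are exon depth where a gene was listed at 0 in 1 of the libraries, and dashed lines mark 1.5 in either direction. GABARAPL1 at 3.24 after Cur and Pip lies furthest right in HepG2, and SQSTM1 at 2.47 after Cur and Pip furthest right in the libraries labelled Hep3B.

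The ATG8 family held the member with the highest ratio among those above 0 in both libraries compared. GABARAPL1, at chr12:10212458-10223128 on the plus strand of GRCh38, encodes an ATG8 protein of the GABARAP branch, which binds cargo receptors. In HepG2 it stood at 11.9985 FPKM after NaB, 106 FPKM after Cur and Pip and 56.2 FPKM after the combination, against 10.4 FPKM in the control. The log2 ratios of 3.24 for Cur with Pip and 2.33 for the combination came with exon-depth ratios of 3.36 and 2.23. The Cufflinks 95% interval, which covers the estimation error of 1 library only, ran from 101 to 111 FPKM after Cur and Pip, against 9.45 to 11.3 FPKM in the control. In the libraries labelled Hep3B it stood at 34.2 FPKM after NaB, 66.6 FPKM after Cur and Pip and 104 FPKM after the combination, against 57.4 FPKM in the control. The control there was thus already above the HepG2 control, and the highest value belonged to the combination rather than to Cur and Pip, at a log2 ratio of 0.85.

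MAP1LC3B, whose product LC3B is the usual marker of autophagosomes, stood in HepG2 at 29.9 FPKM after NaB, 214 FPKM after Cur and Pip and 177 FPKM after the combination, against 74.3 FPKM in the control. The ratio after Cur and Pip was 1.51, just past the fold, that after the combination was 1.24, and that after NaB was -1.28. Both libraries with Cur and Pip were high and the NaB library was the lowest of the 4. Among Hep3B-labelled libraries the levels were 22.8 FPKM (NaB), 71.2 FPKM (Cur and Pip) and 36.7 FPKM (combination), against 37.99 FPKM (control). The value of 71.2 FPKM belongs to a transcript of 699 nt that covers 441 bases of the reference exons, and by exon depth the Cur and Pip library, at 14.6 FPKM, was the lowest of the line, against 23.7 FPKM in the control. GABARAPL2, another ATG8 gene, stood in HepG2 at 69.7 FPKM (NaB), 119.8 FPKM (Cur and Pip) and 81.02 FPKM (combination), against 69.6 FPKM (control), and lay by the sum within 1 log2 unit of the control in every treated library of both lines. By exon depth its ratio was -1.29 after NaB in the libraries labelled Hep3B. GABARAP could not be followed by its sum, since in 4 libraries its sequence lay in a transcript over 4 protein-coding genes that was assigned to none. By exon depth GABARAP was at 104 FPKM (NaB), 39.3 FPKM (Cur and Pip) and 42.2 FPKM (combination), against 76.01 FPKM (control) in HepG2 and at 43.5 FPKM (NaB), 93.7 FPKM (Cur and Pip) and 70.6 FPKM (combination), against 63.8 FPKM (control) in the Hep3B-labelled libraries.

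Of the initiation complex, ULK1, the kinase that starts autophagy, stood in HepG2 at 4.68 FPKM after NaB, 19.6 FPKM after Cur and Pip and 8.90 FPKM after the combination, against 5.77 FPKM in the control. The ratio after Cur and Pip was 1.61 by the sum over 4 transcripts and 1.11 by exon depth, so it was past the fold by the sum alone. Across the Hep3B-labelled libraries the levels were 4.38 FPKM (NaB), 10.2 FPKM (Cur and Pip) and 9.52 FPKM (combination), against 8.87 FPKM (control). The NaB library was the lowest of its line in both lines. ATG13, which anchors ULK1, and ATG101, which stabilises ATG13, stayed between -0.58 and 1.08 in log2 ratio by the sum over the 6 comparisons. By the sum ATG101 was nearest to the fold at 107 FPKM after the combination in the libraries labelled Hep3B, against 50.2 FPKM in the control. By exon depth it was nearest after the combination in HepG2, at 63.1 FPKM, against 22.2 FPKM in the control (ratio 1.46), and its HepG2 ratio after NaB was 0.51.

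Of the nucleation genes, ATG14, which directs the lipid kinase complex to the site of autophagosome formation, stood in HepG2 at 5.52 FPKM after NaB, 9.35 FPKM after Cur and Pip and 11.6 FPKM after the combination, against 3.45 FPKM in the control. The combination was just past the fold at 1.51 by the sum and short of it at 1.43 by exon depth, Cur and Pip gave 1.22, and all treated libraries were above the control. In Hep3B-labelled libraries its levels were 7.26 FPKM (NaB), 5.22 FPKM (Cur and Pip) and 12.3 FPKM (combination), against 10.6 FPKM (control), with no treated library past the fold, and the ratio after Cur and Pip was -0.89 by the sum and 0.18 by exon depth. BECN1, the scaffold of the same complex, kept within -0.46 and 0.19 in log2 ratio in both lines.

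Of the genes for phagophore growth, ATG2A, a lipid transfer protein, stood in HepG2 at 10.05 FPKM after NaB, 27.6 FPKM after Cur and Pip and 24.6 FPKM after the combination, against 6.84 FPKM in the control. Its ratios of 1.87 for Cur with Pip and 1.71 for the combination were 1.75 and 1.31 by exon depth. For the line labelled Hep3B it stood at 15.3 FPKM (NaB), 14.2 FPKM (Cur and Pip) and 6.96 FPKM (combination), against 16.4 FPKM (control). The ratio after the combination was thus -1.13 there, against 1.71 in HepG2, but by exon depth it was -0.05. WIPI1, which reads the lipid signal on the phagophore, stood in HepG2 at 12.6 FPKM after NaB, 14.4 FPKM after Cur and Pip and 6.75 FPKM after the combination, against 31.5 FPKM in the control. All treated HepG2 libraries were below the control, and the combination was the lowest at a ratio of -2.07 (-2.01 by exon depth). Among Hep3B-labelled libraries WIPI1 was low throughout, at 0 FPKM (NaB), 7.23 FPKM (Cur and Pip) and 4.84 FPKM (combination), against 4.65 FPKM (control). ATG9A, the membrane protein of the vesicles that seed the phagophore, was listed at 0 in both HepG2 libraries that received Cur and Pip, where its transcripts were assigned to a readthrough gene. By exon depth ATG9A stood at 36.9 FPKM (NaB), 46.2 FPKM (Cur and Pip) and 27.97 FPKM (combination), against 31.1 FPKM (control) there. WIPI2, which recruits the conjugation machinery, kept within 1 log2 unit of the control in all 6 comparisons.

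Of the conjugation genes, ATG3, the enzyme that transfers ATG8 proteins to lipid, stood in HepG2 at 24.1 FPKM after NaB, 26.96 FPKM after Cur and Pip and 37.5 FPKM after the combination, against 18.2 FPKM in the control, with all treated libraries above the control. ATG12, which is joined to ATG5, stood in HepG2 at 8.75 FPKM (NaB), 8.35 FPKM (Cur and Pip) and 9.90 FPKM (combination), against 6.55 FPKM (control). In the libraries labelled Hep3B it stood at 7.07 FPKM (NaB), 7.64 FPKM (Cur and Pip) and 17.9 FPKM (combination), against 5.66 FPKM (control). The ratio after the combination there was 1.505 by the sum and 0.46 by exon depth. Most of that sum, 12.5 FPKM, belonged to a transcript of 1262 nt that left the gene at its end. ATG4B, the protease that prepares ATG8 proteins, stood in HepG2 at 35.8 FPKM (NaB), 19.6 FPKM (Cur and Pip) and 9.16 FPKM (combination), against 23.98 FPKM (control), with a ratio after the combination of -1.30 by the sum and -2.04 by exon depth. It was listed at 0 after NaB and after the combination in the libraries labelled Hep3B, against 21.1 FPKM in the control, and its exon-depth ratios there were -1.04 after NaB and -3.45 after the combination. ATG5, ATG7 and ATG16L1, which complete the machinery, gave ratios from -0.73 to 1.07 by the sum with none past the fold, and the HepG2 ratio of ATG7 after the combination was 0.35 by the sum but -1.15 by exon depth.

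Of the cargo receptors, SQSTM1, at chr5:179806398-179838078 on the plus strand, showed the highest ratio in the libraries labelled Hep3B among members above 0 in both libraries compared. It stood there at 533 FPKM after NaB and 1801 FPKM after Cur and Pip, was listed at 0 after the combination, and stood at 324 FPKM in the control. By exon depth, which also reads the transcript of 9727 nt that ran 6809 bases past the gene's end after the combination, the levels were 350.3 FPKM (NaB), 1301 FPKM (Cur and Pip) and 201 FPKM (combination), against 240.0 FPKM (control). Cur and Pip gave a ratio of 2.47 by the sum and 2.43 by exon depth, while the combination, with the same dose of Cur and Pip, lay at -0.26 by exon depth. In HepG2 SQSTM1 was listed at 0 after Cur and Pip for the like reason, a transcript of 12275 nt, and by exon depth it stood at 137 FPKM (NaB), 280.0 FPKM (Cur and Pip) and 293 FPKM (combination), against 269 FPKM (control). The HepG2 libraries other than NaB thus lay close together, and the NaB library was the lowest. BNIP3L, a receptor for mitochondria, stood in HepG2 at 10.96 FPKM after NaB, 39.8 FPKM after Cur and Pip and 10.1 FPKM after the combination, against 11.4 FPKM in the control. The ratio of 1.71 after Cur and Pip became -0.31 by exon depth, and that library held a transcript of 810 nt where the control held one of 3463 nt. NBR1, OPTN and BNIP3, which also bind cargo, gave ratios from -0.63 to 0.72, none past the fold.

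Of the transcription factors, TFE3 stood in HepG2 at 21.3 FPKM after NaB, 40.5 FPKM after Cur and Pip and 48.3 FPKM after the combination, against 19.01 FPKM in the control, and in the libraries labelled Hep3B at 25.6 FPKM (NaB), 26.4 FPKM (Cur and Pip) and 33.9 FPKM (combination), against 25.02 FPKM (control). Its HepG2 ratios were 1.05 for Cur with Pip and 1.30 for the combination, short of the fold, and 0.93 and 1.09 by exon depth. TFEB stood in HepG2 at 9.21 FPKM after NaB, 10.2 FPKM after Cur and Pip and 5.40 FPKM after the combination, against 9.25 FPKM in the control, and in the libraries labelled Hep3B at 1.56 FPKM (NaB), 4.94 FPKM (Cur and Pip) and 1.94 FPKM (combination), against 5.94 FPKM (control). The NaB and combination libraries labelled Hep3B were the low ones, with ratios of -1.44 and -1.24, also short of the fold.

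**Figure D2:**
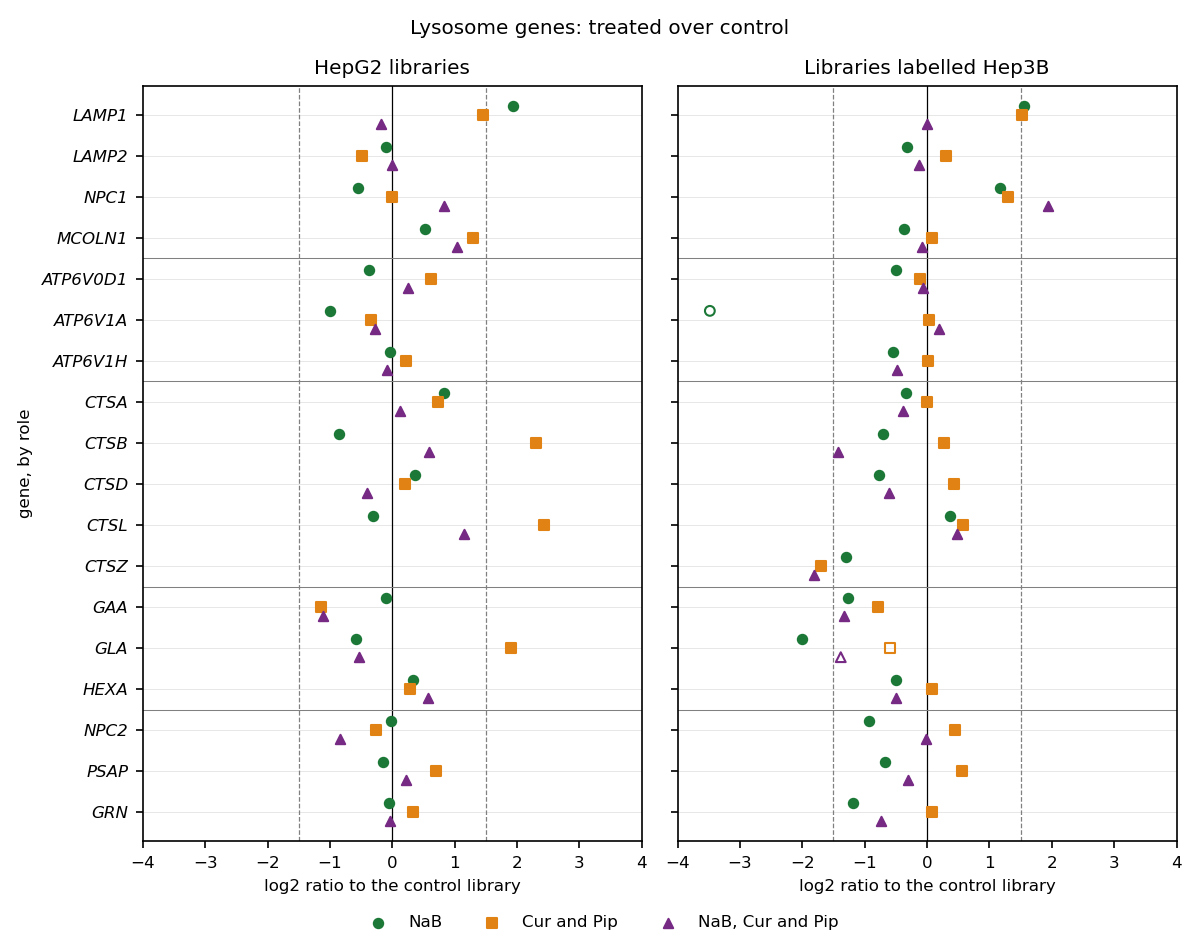
Log2 ratio of each treated library to the control library of its line (horizontal axis) for the 18 lysosome genes, ordered by role (vertical axis), drawn as in the plot of autophagy genes. CTSL at 2.42 and CTSB at 2.31 after Cur and Pip lie furthest right in HepG2, CTSZ has no symbol there because it was listed at 0 in all HepG2 libraries, and most NaB symbols of the libraries labelled Hep3B lie left of 0.

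Of the lysosomal membrane proteins, MCOLN1, the calcium channel of the lysosome, stood in HepG2 at 13.2 FPKM after NaB, 23.2 FPKM after Cur and Pip and 19.4 FPKM after the combination, against 8.89 FPKM in the control. Its ratio after Cur and Pip was 1.29 by the sum and 1.55 by exon depth, and all treated libraries were above the control. Across the Hep3B-labelled libraries it stood at 11.6 FPKM (NaB), 16.1 FPKM (Cur and Pip) and 14.4 FPKM (combination), against 15.2 FPKM (control), with a narrower spread than in HepG2. NPC1, which exports cholesterol from the lysosome, stood in the libraries labelled Hep3B at 17.1 FPKM after NaB, 18.9 FPKM after Cur and Pip and 29.8 FPKM after the combination, against 7.08 FPKM in the control. Every treated library there was above the control, with ratios of 1.16, 1.30 and 1.93, which were 1.08, 1.22 and 1.35 by exon depth. In HepG2, NPC1 stood at 22.8 FPKM (NaB), 33.8 FPKM (Cur and Pip) and 60.9 FPKM (combination), against 33.9 FPKM (control), so that the combination was the highest library in both lines. LAMP2, whose A isoform takes single proteins into the lysosome, kept within -0.49 and 0.31 of the control in log2 ratio.

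LAMP1, the major glycoprotein of the lysosomal membrane, stood in HepG2 at 685 FPKM after NaB, 492 FPKM after Cur and Pip and 158 FPKM after the combination, against 179 FPKM in the control, and in the libraries labelled Hep3B at 599 FPKM (NaB), 584 FPKM (Cur and Pip) and 202 FPKM (combination), against 203 FPKM (control). The NaB libraries and the Cur and Pip libraries of both lines were high, and by the sum the combination libraries of both lines lay beside their controls. The NaB ratios were 1.93 in HepG2 and 1.56 in the Hep3B-labelled libraries, and 1.17 and 0.25 by exon depth. By exon depth the Cur and Pip ratios were 0.80 in HepG2 and 0.29 in the Hep3B-labelled libraries, and those of the combination were 0.60 and -0.42, so none was past the fold by this measure. The 4 high libraries each held a separate transcript with a single exon of 501 to 528 nt near the gene's end, at 365 FPKM (NaB) and 309.8 FPKM (Cur and Pip) in HepG2, and at 396 FPKM (NaB) and 368 FPKM (Cur and Pip) in the other line. The transcript of 9 exons alone stood at 191 FPKM after NaB and 182 FPKM after Cur and Pip, against 179 FPKM in the control, in HepG2.

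The cathepsins parted in HepG2 after Cur and Pip. CTSL, the cysteine protease cathepsin L at chr9:87724051-87731469 on the plus strand, stood in HepG2 at 37.7 FPKM after NaB, 257 FPKM after Cur and Pip and 106 FPKM after the combination, against 47.02 FPKM in the control. Its ratio after Cur and Pip was 2.42 by the sum and 2.32 by exon depth, and 3 transcripts were assigned in every HepG2 library. In Hep3B-labelled libraries it stood at 185 FPKM (NaB), 213 FPKM (Cur and Pip) and 198 FPKM (combination), against 142 FPKM (control), all treated libraries above the control but none past the fold. CTSB, the cysteine protease cathepsin B, stood in HepG2 at 188 FPKM after NaB, 1696 FPKM after Cur and Pip and 515 FPKM after the combination, against 342 FPKM in the control. Its ratio after Cur and Pip was 2.31 by the sum and 1.79 by exon depth. The largest of the 3 CTSB transcripts in that library, 1106 FPKM, began inside the gene. For the line labelled Hep3B CTSB stood at 29.6 FPKM (NaB), 58.9 FPKM (Cur and Pip) and 17.5 FPKM (combination), against 48.8 FPKM (control), and the combination was the lowest library by the sum, at a ratio of -1.43, while by exon depth its ratio was -0.66 and NaB was the lowest at 14.5 FPKM, against 28.1 FPKM in the control.

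CTSD, the aspartic protease cathepsin D, stood in HepG2 at 443 FPKM (NaB), 393 FPKM (Cur and Pip) and 258 FPKM (combination), against 343 FPKM (control), and in the libraries labelled Hep3B at 369 FPKM (NaB), 848 FPKM (Cur and Pip) and 410.3 FPKM (combination), against 630.2 FPKM (control). It was among the highest members of both lines in level and no library passed the fold. CTSA, a carboxypeptidase that protects lysosomal sialidase, gave HepG2 ratios of 0.83 for NaB and 0.73 for Cur with Pip (0.67 and 0.03 by exon depth), and of -0.38 to 0.00 in the libraries labelled Hep3B. CTSZ, a carboxypeptidase, had no transcript in any HepG2 library. Among Hep3B-labelled libraries it stood at 58.6 FPKM after NaB, 44.3 FPKM after Cur and Pip and 40.5 FPKM after the combination, against 146 FPKM in the control, all treated libraries below the control with ratios of -1.30, -1.69 and -1.82. By exon depth these ratios were -1.53, -1.44 and -1.56, so that by this measure NaB and the combination passed the fold.

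Of the glycosidases, GLA, which removes galactose from glycolipids, stood in HepG2 at 14.8 FPKM after NaB, 87.1 FPKM after Cur and Pip and 15.3 FPKM after the combination, against 22.7 FPKM in the control. The Cur and Pip library was the high one, with a ratio of 1.90 by the sum and 1.55 by exon depth, and the combination library lay below the control. Across the Hep3B-labelled libraries GLA stood at 15.8 FPKM after NaB, against 66.4 FPKM in the control, and was listed at 0 with Cur and Pip and with the combination. By exon depth it stood there at 15.8 FPKM (NaB), 32.6 FPKM (Cur and Pip) and 18.5 FPKM (combination), against 49.8 FPKM (control), with a ratio after NaB of -1.60, and all treated libraries were below the control. GAA, which degrades glycogen in the lysosome, stood in HepG2 at 42.5 FPKM (NaB), 19.98 FPKM (Cur and Pip) and 20.5 FPKM (combination), against 45.5 FPKM (control). In Hep3B-labelled libraries it stood at 7.53 FPKM (NaB), 10.9 FPKM (Cur and Pip) and 7.21 FPKM (combination), against 19.6 FPKM (control). All treated libraries of both lines were below their control, with ratios from -1.33 to -0.09 by the sum, and the ratio after Cur and Pip in HepG2 was -1.54 by exon depth. HEXA, which degrades gangliosides, kept within -0.50 and 0.57.

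Of the proton pump subunits, ATP6V0D1 stood in HepG2 at 61.8 FPKM (NaB), 124 FPKM (Cur and Pip) and 95.5 FPKM (combination), against 80.2 FPKM (control), and ATP6V1H kept within -0.54 and 0.23 in both lines. ATP6V1A, the subunit that splits ATP, was listed at 0 after NaB in the libraries labelled Hep3B, where no transcript lay over it, and stood at 25.2 and 28.1 FPKM with Cur and Pip and with the combination, against 24.6 FPKM in the control. In HepG2 the NaB library was also the low one, at 15.2 FPKM, against 31.6 FPKM in the control, a ratio of -1.01 by the sum and, past the fold, of -2.17 by exon depth. In the libraries labelled Hep3B the exon-depth ratios of ATP6V1A were -3.48 for NaB, 1.22 for Cur with Pip and 1.08 for the combination. Of the lumenal cofactors, PSAP, the precursor of the proteins that present lipids to lysosomal enzymes, stood at 274 FPKM (NaB), 489.6 FPKM (Cur and Pip) and 350.3 FPKM (combination), against 302 FPKM (control) in HepG2 and at 212 FPKM (NaB), 503 FPKM (Cur and Pip) and 275 FPKM (combination), against 340.3 FPKM (control) in the Hep3B-labelled libraries. GRN, the precursor of granulins, and NPC2, which hands cholesterol to NPC1, gave ratios from -1.19 to 0.45, with their lowest after NaB in the libraries labelled Hep3B.

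**Figure D3:**
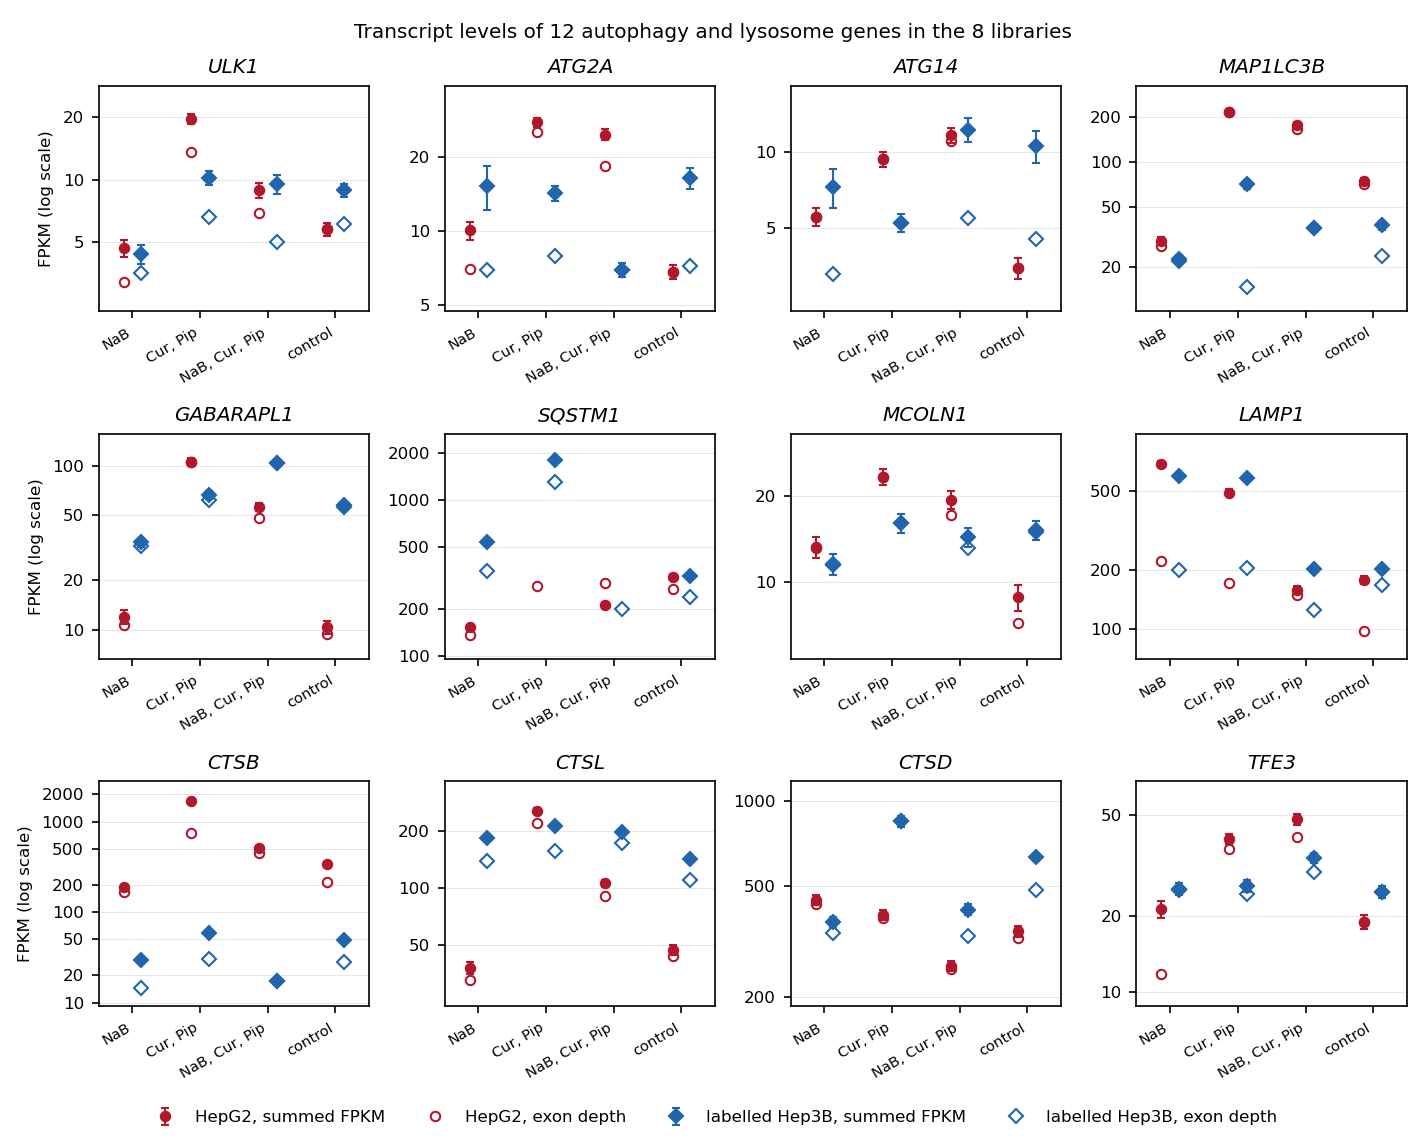
Levels of 12 members in the 8 libraries, on a log axis in FPKM, with treated libraries left of the control. Filled symbols are summed FPKM with the Cufflinks 95% interval of that library, open symbols are exon depth, circles are HepG2 and diamonds are libraries labelled Hep3B, and a filled symbol is missing where the sum is 0. In HepG2 the Cur and Pip library is highest for GABARAPL1 (106 FPKM), CTSL (257 FPKM) and CTSB (1696 FPKM).

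Considering autophagy and lysosome genes apart, the median log2 ratio of the 24 autophagy genes in HepG2 was 0.11 for NaB, 0.43 for Cur with Pip and 0.28 for the combination, and that of the 17 measured lysosome genes was -0.09, 0.33 and 0.00 after the same treatments. The median over all genes was 0 in each. For the line labelled Hep3B the autophagy medians were -0.17 for NaB, 0.14 for Cur with Pip and 0.00 for the combination, and the lysosome medians were -0.61, 0.08 and -0.34, beside medians over all genes of -0.12, 0 and -0.05. Median-of-ratios scaling moved the libraries labelled Hep3B by 0.19 after NaB and by 0.11 after the combination in log2 ratio, and every other comparison by less than 0.04. The lysosome genes after NaB in the libraries labelled Hep3B thus had a lower median than the autophagy genes in any comparison. Of the 17 above 0 in both libraries, 3 were higher than in the control, beside 4417 of 11089 genes.

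The members with CACGTGAC in their promoters did not share 1 ratio. After Cur and Pip in HepG2 the ratios by the sum were 1.46 for LAMP1, 1.29 for MCOLN1, 1.22 for ATG14, 0.73 for CTSA, 0.62 for ATP6V0D1, 0.54 for ATG3, 0.20 for CTSD and -1.15 for GAA. By exon depth they were, in the same order, 0.80, 1.55, 1.22, 0.03, 0.62, 0.65, 0.24 and -1.54. GABARAPL1 and CTSL, with the highest ratios in that library, and MAP1LC3B and ULK1 had no CACGTG in this window, which says only that these letters are not there.

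The combination was set against each of its parts to see whether adding NaB to Cur and Pip was accompanied by higher or lower levels. In HepG2, 28 of the 40 members above 0 in both libraries were lower after the combination than after Cur and Pip. Of all 10952 genes so measured, 5329 were. The median log2 ratio was -0.34 for the members and 0.02 for all these genes. Among Hep3B-labelled libraries, 29 of 41 members were lower, with a median of -0.26, beside 6550 of 11443 genes and a median of -0.09 over all. By exon depth 28 of 40 and 28 of 41 members were lower in these comparisons, beside 4867 of 10952 and 6939 of 11443 genes. Against NaB, the combination was higher for 26 of 41 members in HepG2, with a median of 0.23, beside 5126 of 10746 genes and a median of -0.04 over all, and for 25 of 38 in the libraries labelled Hep3B, with a median of 0.14, beside 6098 of 11164 genes and a median of 0.06 over all. By exon depth it was higher for 24 of 41 and 26 of 38 members, beside 4835 of 10746 and 5967 of 11164 genes. In HepG2 it was higher for 11 of 17 lysosome genes by the sum and 8 by exon depth. For the 22 autophagy genes there the counts were 14 and 15. Of the 8 members past the fold after Cur and Pip in HepG2, which were picked for that library, GABARAPL1, MAP1LC3B, ATG2A, CTSL and CTSB remained above the control after the combination by 0.59 to 2.33 in log2 ratio, ULK1 by 0.55, and GLA and BNIP3L lay below it at -0.54 and -0.16.

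**Figure D4:**
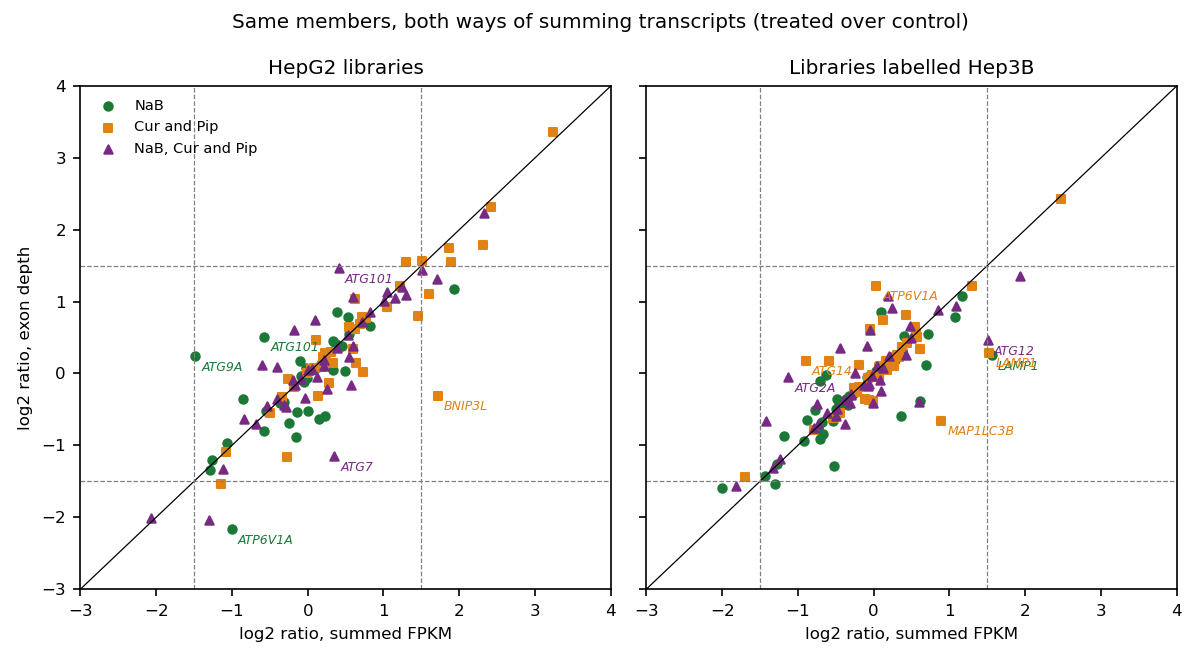
Log2 ratio to the control by summed FPKM (horizontal axis) against the ratio by exon depth (vertical axis) for members above 0 in both libraries, HepG2 on the left and libraries labelled Hep3B on the right. The diagonal marks equal ratios, dashed lines mark 1.5 in either direction, and genes that part by more than 1 are named. GABARAPL1 in HepG2 (3.24 and 3.36 after Cur and Pip) lies on the diagonal, and BNIP3L (1.71 and -0.31) far off it.

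With both lines fitted together as repeats of a treatment (limma on log2(FPKM + 1), cell line and treatment as terms, 15485 genes, Benjamini-Hochberg adjustment over all), no member passed an adjusted p of 0.05 for any treatment. The whole table had 0 genes past it for NaB (0%), 6 for Cur with Pip (0.0387%) and 19 for the combination (0.123%). At an unadjusted p under 0.05 in this limma fit the members numbered 2 for NaB (LAMP1 and ATP6V1A), 1 for Cur with Pip (LAMP1) and 3 for the combination (NPC1, GAA and ATG12). Of all 15485 genes, 721, 912 and 1646 lay under it for these treatments, so the members named do not stand out by number. The lowest unadjusted p was that of LAMP1 after NaB, at 0.0021, with an estimate of 1.75 ± 0.31 (SE) and a higher level in both lines, and its limma adjusted p was 0.718, between 0.398 and 0.885 over 19 alternatives. By exon depth that estimate was 0.71 ± 0.36 (SE), with an unadjusted p of 0.0966 in the limma fit. The members at an unadjusted p under 0.05 by exon depth were ATP6V1A and GABARAPL2 for NaB, none for Cur with Pip, and ATG4B, ATG7, ATG101 and GAA for the combination, and no adjusted p passed. The count over all genes by exon depth is not given here, so these names are a list only. In this fit the differences between the lines count as spread, and only 3 residual degrees of freedom remained. GABARAPL1, with ratios of 3.24 in HepG2 and 0.21 in the Hep3B-labelled libraries after Cur and Pip, is a member for which that spread was wide. Whether the lines differed in their response was not tested, since each line had 1 library per treatment.

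Between the lines, with 4 libraries each matched by treatment, 6 of 44 members passed an adjusted p of 0.05 in the same limma fit, while 24.5% of all genes did. The share of members, 13.6%, was thus below the background at this setting. It was also below it by exon depth (18.2%, against 29.5% of all genes) and with a pseudocount of 0.1 (9.09%, against 20.4%). The exceptions were a pseudocount of 5 (25%, against 22.5% of all genes) and genes above 0 in every library (33.3%, against 33.2%). In every other alternative the share of members lay below that of all genes. CTSB averaged 685 ± 687 FPKM in HepG2 and 38.7 ± 18.6 FPKM in the libraries labelled Hep3B (SD over the 4 treatments, n = 4 each, limma adjusted p = 0.00774). CTSA averaged 275 ± 78.8 FPKM in HepG2 and 61.3 ± 8.94 FPKM in the libraries labelled Hep3B (n = 4 each, limma adjusted p = 0.00698). BECN1 averaged 46.4 ± 7.04 FPKM in HepG2 and 18.6 ± 2.93 FPKM in Hep3B-labelled libraries (limma adjusted p = 0.0165). For these 3 the HepG2 libraries all lay above those labelled Hep3B, with estimates of 3.76 ± 0.50, 2.12 ± 0.27 and 1.27 ± 0.23 (log2, SE). GAA averaged 32.1 ± 13.8 FPKM in HepG2 and 11.3 ± 5.78 FPKM in the libraries labelled Hep3B (limma adjusted p = 0.0307). By the sum its lines barely missed overlap, with a lowest HepG2 value of 19.98 FPKM and a highest of 19.6 FPKM in the other line. By exon depth they overlapped, at 13.7 and 18.4 FPKM for the same 2 libraries' ends of the range. TFEB was higher in HepG2 by 1.15 ± 0.31 (log2, SE), with an adjusted p by limma of 0.0497 and overlapping libraries. CTSZ was listed at 0 in all 4 HepG2 libraries and stood at 40.5 to 146 FPKM in the libraries labelled Hep3B (limma adjusted p = 0.00111).

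Over 18 or 19 alternatives the limma adjusted p ran from 0.00118 to 0.0559 for CTSB, 0.00138 to 0.0467 for CTSA, 0.00492 to 0.0546 for BECN1, 0.00852 to 0.114 for GAA, 0.0172 to 0.147 for TFEB and 0.000474 to 0.0245 for CTSZ. CTSA and CTSZ passed in every alternative run. Leaving out a library has the same effect on this contrast in either line, since its partner then has no match. GAA and TFEB no longer passed with any library left out (limma adjusted p from 0.0633 to 0.114 for GAA and from 0.0877 to 0.147 for TFEB). BECN1 did not without a control library (0.0543) or a Cur and Pip library (0.0546), and CTSB did not without a Cur and Pip library (0.0559) or a combination library (0.0555), all by limma after adjustment. The p-values measure only the spread between these libraries, which nothing in the labels says were separate cultures. In all, 10 of 44 members had every HepG2 library above every library labelled Hep3B and 2 the reverse, among them LAMP2, GRN and ATP6V0D1 above and ATG3 and CTSZ below. Over all 15485 genes, 2028 lay wholly above and 2611 wholly below. The hepatocyte markers and the fibroblast and endothelial markers named above also parted the lines, and their part in these differences was not tested. The NaB doses differed between the lines, so line and dose cannot be told apart for the libraries with NaB.

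**Figure D5:**
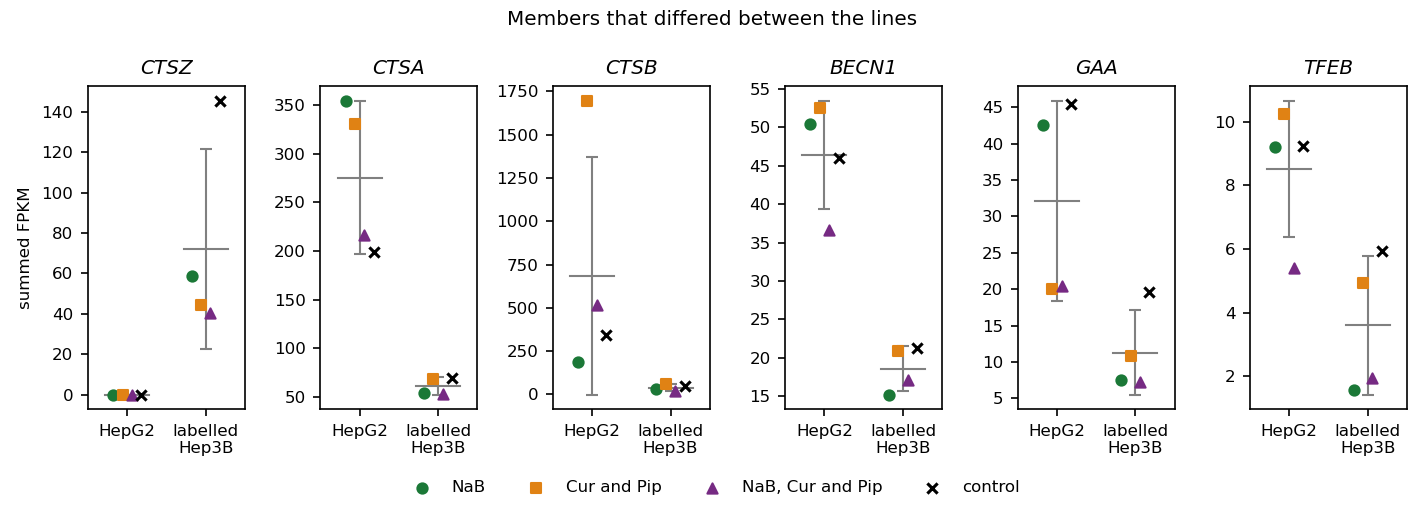
Summed FPKM (vertical axes, each with its own range) of the 6 members that differed between the lines by limma, with HepG2 libraries left of those labelled Hep3B. Each symbol is 1 library, and grey lines are the mean and SD of the 4 libraries of a line. CTSZ is at 0 in all HepG2 libraries, and TFEB is the member whose lines overlap.

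The other genes of the pathway were taken from lists of 39 autophagy genes, 70 lysosome genes and 30 regulators of TFEB, TFE3 and mTORC1. After Cur and Pip in HepG2, 3 of 34 measured other autophagy genes were higher and 2 lower past the fold, 2 of 63 other lysosome genes were higher and 6 lower, and 3 of 28 other regulators were higher and 2 lower. Over all genes 8.97% were higher and 10.2% lower. After the combination in HepG2 the counts higher and lower were 3 and 2, 3 and 4, and 2 and 1 for these lists (8.05 and 11.5% of all genes). Across the Hep3B-labelled libraries, 36, 67 and 29 genes of the lists were measured. The counts there were 0 and 1, 2 and 4, and 0 and 0 after Cur and Pip (6.52 and 4.02% of all genes). After the combination they were 1 and 3, 2 and 7, and 1 and 2 (6.81 and 8.22%). After NaB they were 0 and 1, 0 and 2, and 1 and 1 in HepG2 (4.77 and 5.07% of all genes). In the Hep3B-labelled libraries they were 0 and 3, 1 and 5, and 0 and 1 after NaB (5 and 7.07%). The median log2 ratio of the other lysosome genes in HepG2 was -0.16 for NaB, -0.16 for Cur with Pip and -0.31 for the combination. In the Hep3B-labelled libraries it was -0.50 for NaB, -0.08 for Cur with Pip and -0.47 for the combination. The lysosome members, at 0.33 after Cur and Pip in HepG2 and -0.61 after NaB in the libraries labelled Hep3B, thus lay above the other lysosome genes for Cur with Pip and near them for NaB.

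For the genes named from these lists, the combination library is set against the control library. VAMP8, a fusion protein of the autophagosome and lysosome, was the lowest of the other autophagy genes in both lines. It stood at 34.1 FPKM against 154 FPKM (log2 ratio -2.15) in HepG2 and at 32.9 FPKM against 125 FPKM (log2 ratio -1.90) in the Hep3B-labelled libraries, with the same values within 0.01 by exon depth. NAGLU, which degrades heparan sulfate, stood at 7.96 FPKM against 45.6 FPKM (log2 ratio -2.38) in HepG2 and at 8.18 FPKM against 29.9 FPKM (log2 ratio -1.75) in the Hep3B-labelled libraries. Its exon-depth ratios were -2.20 and -2.75. On the higher side, FLCN, which acts on the Rag GTPases that hold TFEB and TFE3 at the lysosome, stood at 38.4 FPKM against 12.98 FPKM (log2 ratio 1.496) in HepG2 and at 23.3 FPKM against 6.69 FPKM (log2 ratio 1.66) in the Hep3B-labelled libraries. By exon depth its ratios were 1.22 and 1.09, both short of the fold. RRAGC, 1 of those Rag GTPases, stood in HepG2 at 50.5 FPKM against 14.5 FPKM (log2 ratio 1.73). TMEM41B, a lipid scramblase, stood at 40.3 FPKM against 10.7 FPKM (log2 ratio 1.82) in HepG2 and 32.6 FPKM against 7.34 FPKM (log2 ratio 2.01) in the Hep3B-labelled libraries, but its exon-depth ratios were 0.99 and 0.30. IDS, which removes sulfate from glycosaminoglycans, stood in HepG2 at 21.8 FPKM against 3.58 FPKM (log2 ratio 2.32). NEU1, the lysosomal sialidase, stood there at 1375 FPKM against 335 FPKM (log2 ratio 2.04, and 2.81 by exon depth). It was listed at 0 in the HepG2 NaB library. LGMN, an asparagine-specific protease, stood in HepG2 at 78.9 FPKM against 23.5 FPKM (log2 ratio 1.70). TSC2, a brake on mTORC1, stood in HepG2 at 1.61 FPKM against 7.73 FPKM (log2 ratio -1.74, and -2.98 by exon depth). DDIT4, another brake on mTORC1, stood in the libraries labelled Hep3B at 54.3 FPKM against 227 FPKM (log2 ratio -2.04).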

How the data were processed

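RNA-seq of 8 libraries, 1 per condition, was used. The authors aligned reads to GRCh38 (STAR) and built transcripts library by library (Cufflinks). FastQC and Cuffdiff are also named in the submitters' processing notes, and no version is given in the sources used for this work. Per assembled transcript the deposited text gives FPKM with a 95% interval, under identifiers that name no gene. No counts were read and no count test was run. Sums over transcripts assembled anew in each library move with what was assembled.

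With bedtools 2.31.1, a transcript went to the same-strand gene of GENCODE release 44 covering most of its exonic bases (at least 50%), and FPKM were summed per gene. By coverage, at 300 bases a fragment, the libraries held 25.6 to 35.7 M fragments. Introns matched annotated ones for 94.8 to 96.4% per library. Exon depth spread the FPKM of all transcripts on the same strand over the exons of the reference transcript. Ratios used log2(FPKM + 1) and genes with 1 FPKM or more in a library of the line. The fold was a log2 ratio beyond 1.5, the value in the study's methods. The Cuffdiff p-value filter that the study set beside it was not applied. The fit across both lines used limma 3.58.1 (R 4.3.3) with adjusted p under 0.05, and was tested on simulated data. Python 3.11.15, numpy 2.4.6, pandas 2.3.3 and matplotlib 3.10.9 were used. Promoters came from RefSeq. Alternatives changed the pseudocount, filter, threshold, scaling and handling of transcripts, and left out each library in turn.

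The rule for the members uses no measured value, but the members, the other gene lists and the tests were chosen with earlier results of these data known. Every member could be named. Values in every library were given for members past the fold with levels above 0 in all libraries of that line and for SQSTM1, MAP1LC3B, GABARAPL1, ULK1, TFEB, TFE3, LAMP1, CTSD, CTSL and MCOLN1, and for further members chosen after their values were seen. Of the other pathway genes, up to 3 highest and 3 lowest after the combination in each line could be named.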

Additional observations from a re-analysis of the deposited data

Results flagged for a closer look

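ATG2A, the lipid transfer protein of the phagophore, lay on opposite sides of its control in the 2 lines after the combination, by more than 1 log2 unit in each. It stood at 24.6 FPKM after the combination, against 6.84 FPKM in the control, in HepG2 (log2 ratio 1.71), and at 6.96 FPKM after the combination, against 16.4 FPKM in the control, in the libraries labelled Hep3B (log2 ratio -1.13). The difference between the lines was not tested, since each had 1 library per condition. By exon depth the ratios were 1.31 and -0.05, so the lower level in the libraries labelled Hep3B was seen in the sum of transcripts alone. No other member above 0 in the libraries compared did so.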

How the results depend on the processing

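A fold in this section is a threshold on the log2 ratio. The counts of members past the fold, given here in the order NaB, Cur with Pip and combination for HepG2 and then for the libraries labelled Hep3B, were 1, 11, 6, 5, 5 and 7. They were 1, 8, 3, 4, 1 and 2 by exon depth; 1, 8, 4, 1, 2 and 3 with genes above 0 in every library; 2, 9, 3, 4, 3 and 5 with the largest transcript of each gene; 2, 11, 6, 6, 5 and 8 with a pseudocount of 0.1; 1, 7, 4, 4, 5 and 6 with one of 5; 6, 17, 13, 11, 6 and 12 with a fold of 1; 0, 6, 4, 4, 3 and 4 with a fold of 2; and 2, 10, 6, 5, 4 and 6 without transcripts over more than 1 protein-coding gene. A minimum of 5 FPKM, no minimum, median-of-ratios scaling, asking for Cufflinks intervals that do not overlap and leaving out transcripts under 300 nt moved none of these counts. Beyond the main setting and exon depth, the matching shares of all genes past the fold are not given here. These counts therefore describe the members only. Of 35 ratios past the fold over the 6 comparisons, exon depth turned 3, all after Cur and Pip in HepG2: SQSTM1 lay at 0.059 instead of -8.34, ATG9A at 0.56 instead of -5.07 and BNIP3L at -0.31 instead of 1.71. It kept 14 past the fold, left 18 short of it and brought 5 others past it. Between the lines limma called 6 members, 11 with a pseudocount of 5, 12 of 36 with genes above 0 in every library, and 3 to 4 with each library left out in turn, beside 24.5%, 22.5%, 33.2% and 11.4 to 13.1% of all genes. For the treatments limma called 0 members under every alternative. The limma fit already matched the lines by treatment. No paired analysis by replicate number was possible because the labels give no such numbers. Within a line, depth limits the estimate of a level but the missing replicates limit every comparison.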

Other observations

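Transcripts that left a member's annotated end differed in number between libraries. A transcript with several exons ran more than 1000 bases past the end of 4 members after the combination and of 2 after Cur and Pip in HepG2, and of 1 each after NaB and in the control. In the libraries labelled Hep3B it did so for 5 members after the combination and for 1 each after NaB, after Cur and Pip and in the control. The members after the combination were ATG9A, GLA, LAMP1 and SQSTM1 in HepG2 and ATG12, GLA, MAP1LC3B, OPTN and SQSTM1 in the libraries labelled Hep3B, so GLA and SQSTM1 were in both. These counts were looked at after the values of SQSTM1 were seen, and no test was run on them. The same count over all genes was not made, so they cannot be read as particular to these members.

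The E-box letters were also counted in the other pathway genes. CACGTGAC lay in 9 of 49 promoters of the other lysosome genes (18.4%), 5 of 26 of the other regulators (19.2%) and 2 of 29 of the other autophagy genes (6.90%).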
